A study of Mus musculus with 6 samples.

Results

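Pericytes were sought among single cells of the mouse heart, and 390 were found among 31139 cells that passed the filter, out of 34940 deposited. The members were chosen by their own counts of unique molecular identifiers (UMIs, each standing for 1 captured transcript) in cells with at least 800 UMIs, at least 200 detected genes and at most 20% mitochondrial UMIs. A member had at least 4 UMIs in total of the 5 markers Kcnj8, Abcc9, Higd1b, Rgs5 and Vtn with at least 2 of these detected, at most 1 UMI of Myh11, at most 1 of Cdh5, Csf1r and Ptprc together, and at most 3 of Col1a1. The libraries held cardiac cells other than myocytes from male mice of 8 to 12 weeks, wild type (WT, C57BL/6JRj) or Trpm4 knockout (KO, B6.Cg-Trpm4tm1.2-PG). Hearts were taken 24 h after sham surgery, or 24 h or 72 h after ligation of the left anterior descending (LAD) coronary artery, in each genotype. Every one of the 6 groups was 1 library made from 4 pooled mice. No group therefore has a replicate, no test was made, and every interval in parentheses is a 95% interval for counting error only. Tissue was digested with thermolysin and papain, strained through a 300 and then a 40 um mesh, and live cells (Calcein-AM positive, DAPI negative) were sorted, which sets which cells could enter. Neither the deleted stretch of Trpm4, nor the tissues it is deleted in, nor a Cre driver is named in the labels.

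Pericytes are the mural cells that wrap capillaries inside the basement membrane they share with the endothelium. Endothelial PDGF-B recruits and holds them through the receptor Pdgfrb, and Notch3 keeps their mural identity. An ATP-sensitive potassium channel built from Kcnj8 and Abcc9 sets their membrane potential, and vasoconstrictors such as endothelin and angiotensin act on them through receptors that release calcium. Trpm4 is a calcium-activated channel for monovalent cations that depolarises the cell. In the ischemic heart pericytes are known for capillary constriction, for cytokine release and for loss of contact with the vessel.

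Promoters are shown for 4 genes that were past 2-fold higher with ligation in WT, with their values in both genotypes given below. Mt1 and Mt2 encode metallothioneins, small zinc-binding proteins, and Hilpda and Pgk1 encode a lipid-droplet protein and a glycolytic enzyme known as targets of hypoxia-inducible factor. The sequences are from RefSeq (GRCm38.p6), run 5′ to 3′ on the gene's strand, and cover 250 bases before to 50 bases after the annotated start. They lie at chr8:94178839-94179138 (Mt1), chr8:94172368-94172667 (Mt2), chr6:29272376-29272675 (Hilpda) and chrX:106186850-106187149 (Pgk1), all on the plus strand. Capitals mark matches on either strand to TGCNCNC in Mt1 and Mt2, and to ACGTG in Hilpda and Pgk1. TGCNCNC is looser than the core of the metal response element and takes it in. ACGTG is 1 form of the core of the hypoxia response element. Overlapping matches were counted.
Mt1 promoter: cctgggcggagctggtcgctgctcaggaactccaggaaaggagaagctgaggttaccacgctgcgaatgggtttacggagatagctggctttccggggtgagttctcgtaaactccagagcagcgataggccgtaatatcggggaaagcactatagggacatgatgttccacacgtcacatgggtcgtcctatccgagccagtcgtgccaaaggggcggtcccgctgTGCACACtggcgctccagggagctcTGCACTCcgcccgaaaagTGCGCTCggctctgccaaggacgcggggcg
Mt2 promoter: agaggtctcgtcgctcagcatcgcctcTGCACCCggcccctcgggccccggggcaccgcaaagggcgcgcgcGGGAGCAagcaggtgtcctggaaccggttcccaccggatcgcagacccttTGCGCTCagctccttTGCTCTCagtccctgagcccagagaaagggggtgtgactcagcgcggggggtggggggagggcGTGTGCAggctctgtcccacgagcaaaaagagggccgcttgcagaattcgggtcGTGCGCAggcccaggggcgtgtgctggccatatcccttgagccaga
Hilpda promoter: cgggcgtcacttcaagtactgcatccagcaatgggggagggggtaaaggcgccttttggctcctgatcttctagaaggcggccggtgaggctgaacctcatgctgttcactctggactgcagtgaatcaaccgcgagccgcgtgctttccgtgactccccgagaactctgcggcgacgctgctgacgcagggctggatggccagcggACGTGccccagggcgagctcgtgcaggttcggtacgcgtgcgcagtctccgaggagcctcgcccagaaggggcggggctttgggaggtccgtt
Pgk1 promoter: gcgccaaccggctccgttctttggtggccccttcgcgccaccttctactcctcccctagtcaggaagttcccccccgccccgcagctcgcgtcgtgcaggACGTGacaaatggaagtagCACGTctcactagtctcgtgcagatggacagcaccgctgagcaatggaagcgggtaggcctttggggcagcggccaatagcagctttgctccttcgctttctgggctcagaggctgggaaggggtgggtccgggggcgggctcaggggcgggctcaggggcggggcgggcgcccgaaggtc
Mt1 held 3 matches and Mt2 held 6. Of 32851 promoters of the same length, 51% held at least 1 TGCNCNC, 7.1% held as many as Mt1 and 0.225% as many as Mt2. Pgk1 held 2 matches to ACGTG. The Hilpda promoter printed held 1, and the promoter of a second listed Hilpda start held 0. Of all promoters, 19.6% held at least 1 ACGTG and 8.21% at least 2. A match describes letters, not a bound site.

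The members were spread over the libraries as 75 (WT sham), 81 (KO sham), 45 (WT ligation 24 h), 85 (KO ligation 24 h), 30 (WT ligation 72 h) and 74 (KO ligation 72 h). Their median depth was 3242, 3015, 3865, 2686, 3125 and 1424 UMIs, in the same order. Summed over members a library held between 101085 and 301211 UMIs. Over all kept cells the median depth was 3213 to 8438 UMIs in 5 libraries and 1871 in KO ligation 72 h. Trpm4, the targeted gene, gave 294, 125 and 192 UMIs over all kept cells of the WT libraries (sham, 24 h, 72 h) and 204, 139 and 51 in the KO libraries. That is 8.82, 5.47 and 4.23 CPM (counts per 1000000 UMIs) in WT, against 6.06, 3.45 and 2.59 CPM in KO. Transcript ends were counted, and since the deleted part is not given, these values do not check the genotype labels.

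The members carried pericyte genes beyond the 5 markers of the rule. Among genes of at least 100 CPM in pericytes of the sham libraries, those that stood far above every other population (smooth muscle cells, endothelial cells, fibroblasts and leukocytes, each picked by its own markers) included Kcnj8 and Abcc9 of the rule and Colec11, a collectin, at 34.8 times the nearest population. Others high on this measure were Car2, a carbonic anhydrase, at 18.9 times, Lin7a at 15.1, Art3 at 13.6 and Steap4 at 12.3. Pdgfrb was at 948 to 1844 CPM in pericytes over the 6 libraries, at 417 to 557 in smooth muscle cells and at most 109 in the other populations. These contrasts describe cells chosen on their expression and support nothing further. Acta2, the smooth muscle actin, was at 194 to 1462 CPM in pericytes and at 14220 to 19080 in smooth muscle cells. Of 8 smooth muscle markers 7 were detected in the pericytes of each library, at 1238 to 3058 CPM in sum, and Cnn1 was at 0 in all 6. The 10 endothelial markers summed to 1651 to 4405 CPM, highest in the 24 h ligation libraries at 4405 (WT) and 3732 (KO). Fabp4 of this list was itself at 1067 to 4222 CPM in pericytes over the 6 libraries. Pecam1, Kdr, Cldn5 and Tie1 were at 0 in both 24 h ligation libraries.

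The label held for most members but not for those of the KO library at 72 h. There 49 of 74 members held at least 10 UMIs of genes that define another class, against 7, 1, 1, 2 and 1 members in the other libraries (WT sham, KO sham, WT ligation 24 h, KO ligation 24 h, WT ligation 72 h). All 10 monocyte and macrophage markers were detected in KO ligation 72 h, at 6795 CPM in sum, against 84.5 to 556 CPM elsewhere. Cd74, an MHC class II chaperone, was at 5815 CPM there and at most 43.2 CPM in the other libraries. The 5 markers of the rule made up a median 0.492% of a member's UMIs, against 1.57% to 2.02% in the other 5. This library is therefore shown apart, and the part of leukocyte RNA in its values was not tested. At the limit of the rule, the 37 members with a marker sum of 4 or 5 had 332 CPM of Pdgfrb and 4021 CPM of Lyz2, a macrophage lysozyme. The 56 cells just outside, with a sum of 2 or 3, had 172 and 6334 CPM, while the 282 members with a sum of at least 20 had 1776 and 179. No cell barcode was a pericyte in more than 1 library, and 95 of 31044 distinct barcodes of kept cells occurred in at least 2 libraries.

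**Figure D1:**
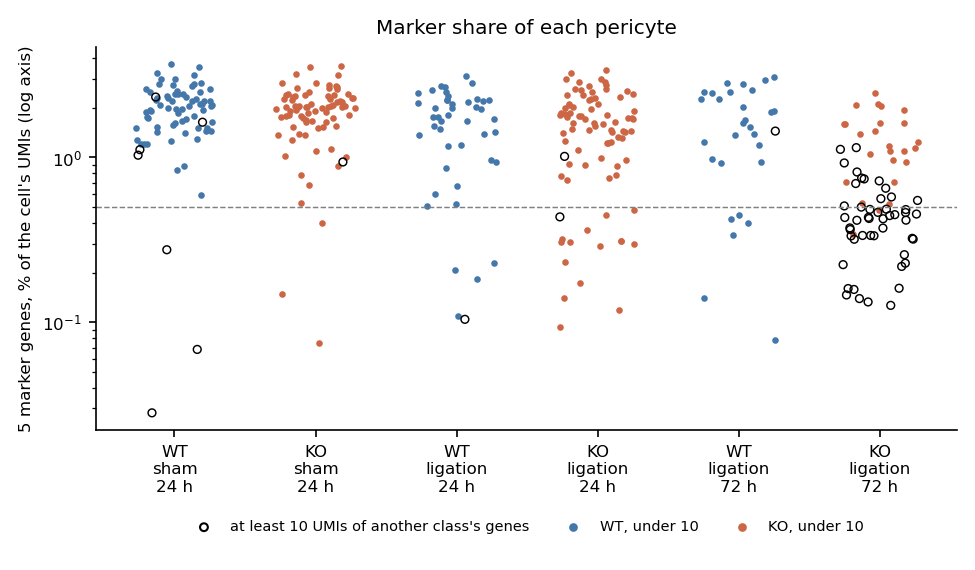
Each point is 1 pericyte, by library on the x axis; the y axis gives the 5 marker genes of the rule as a percentage of that cell's UMIs on a log scale, with a dashed line at 0.5%. Open circles mark the members with at least 10 UMIs of another class's genes, 49 of the 74 in KO ligation 72 h, and filled points below the line include 15 members of KO ligation 24 h.

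A second set of members had a low share of the 5 markers and under 10 UMIs of each other class that was checked. The classes checked were fibroblast, cardiomyocyte, macrophage, neutrophil, endothelial and erythroid. Other classes, such as smooth muscle, were not part of this check. Whether these members are pericytes was not tested. With under 0.5% of UMIs from the 5 markers and under 10 UMIs of another class there were 0 (WT sham), 3 (KO sham), 4 (WT ligation 24 h), 15 (KO ligation 24 h), 6 (WT ligation 72 h) and 2 (KO ligation 72 h) members. The 15 of KO ligation 24 h had a median of 5516 UMIs, and Pdgfrb was at 537 CPM in them against 1828 CPM in the 68 members above the limit. Pecam1 (endothelial), Tnnt2 (cardiomyocyte) and Wt1 (mesothelial) were at 0 in all 85 members of this library, which tells nothing about the 15 in particular. Of the endothelial list 6 of 10 genes were detected in the 85, and of the cardiomyocyte list 5 of 10. In the 6 libraries the 6 mesothelial, 6 T and NK cell and 5 B cell markers summed to at most 158 CPM. Hspa5, the chaperone of the endoplasmic reticulum, was at 3904 CPM in the 15 and 703 in the 68. Odc1, which starts polyamine synthesis, was at 1033 and 56.3 CPM, and the lactate exporter Slc16a3 at 268 and 33.8. The chemokine Cxcl5 was at 527 CPM in the 15, with no UMI in the 68. In WT ligation 24 h the 4 such members held Mt1 at 24500 CPM and the chemokine Ccl2 at 4172, against 6677 and 178 in the 40 above the limit. Since these few deep cells weigh heavily in a summed level, values are also given below for the members above the limit with under 10 UMIs of another class (68, 77, 40, 68, 23 and 23 members in the library order above), called marker-rich pericytes. This class was set after the values were seen.

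Genes also varied unequally among members of 1 library. After each member was thinned to 1500 UMIs, the variance of a gene's count over its mean had a median of 1.03 in WT sham and 1.1 in WT ligation 24 h. In WT ligation 24 h Mt1 stood at 39.1, Ccn2, a matricellular growth factor, at 21.4 and Mt2 at 14.5. In KO ligation 24 h Hspa5 stood at 20.1 and Mt1 at 15.8. There S100a8 reached 40.8, and 1 member held 734 of the 866 UMIs of S100a8 and S100a9. The marker sums of the neutrophil list were 1029 to 1162 CPM in WT sham, KO sham, WT ligation 24 h and WT ligation 72 h and 3771 in KO ligation 24 h. G0s2 of this list was itself at 371 to 1019 CPM in pericytes over the 6 libraries. It was above smooth muscle cells, endothelial cells and fibroblasts in all 6. In WT ligation 72 h 2 of the 8 list genes were detected. Single members also held 367 of 377 cardiomyocyte UMIs in KO sham and 354 of 372 fibroblast UMIs in WT ligation 24 h.

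The share of pericytes among kept cells was 1.39% (1.09 to 1.74) in WT sham, 1.38% (1.1 to 1.71) in KO sham, 1.37% (1.0 to 1.83) in WT ligation 24 h, 1.25% (0.998 to 1.54) in KO ligation 24 h, 0.673% (0.454 to 0.959) in WT ligation 72 h and 1.39% (1.1 to 1.75) in KO ligation 72 h. The last value counts the 49 members with genes of another class. Without such members the share was 0.471% (0.305 to 0.694) in KO ligation 72 h and 0.65% (0.436 to 0.932) in WT ligation 72 h, and over marker-rich pericytes 0.433% (0.275 to 0.649) and 0.516% (0.327 to 0.773), so that the 72 h libraries overlapped in their counting intervals. WT ligation 72 h differed from WT ligation 24 h by -0.70 percentage points (-1.20 to -0.25). The denominators differed, since leukocytes made up most kept cells after ligation. Over kept cells other than leukocytes the share was 2.28%, 1.88%, 3.44%, 5.87%, 3.31% and 4.59%. On that scale WT ligation 72 h differed from WT ligation 24 h by -0.14 percentage points (-1.63 to 1.49), and KO ligation 24 h exceeded WT ligation 24 h by 2.43 percentage points (0.85 to 4.02). The sort and the digestion can set such shares, and loss of one cell type cannot be told apart from gain of another.

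**Figure D2:**
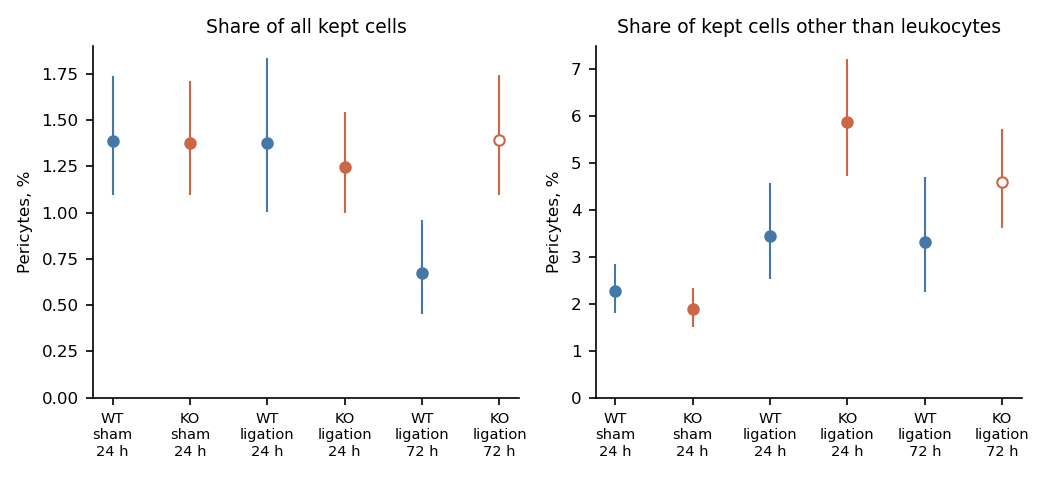
The y axes give pericytes as a percentage of all kept cells (left) and of kept cells other than leukocytes (right) for each library, with exact 95% intervals; KO ligation 72 h is drawn open because most of its members held leukocyte RNA. On the left WT ligation 72 h is lowest at 0.673% when every member is counted, and on the right the 2 sham libraries are lowest.

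Relative to the other vascular cells, pericytes were more frequent after ligation. There were 3.26 (2.55 to 4.1) and 2.59 (2.05 to 3.23) pericytes per 100 endothelial cells in WT and KO sham, 6.89 (4.98 to 9.33) and 12.5 (9.84 to 15.7) at 24 h of ligation, and 11.9 (7.87 to 17.4) in WT at 72 h. Per 100 smooth muscle cells there were 45.7 and 37.3 in sham, 84.9 and 155 at 24 h, and 103 in WT at 72 h. Per 100 fibroblasts the range over these 5 libraries was 19.9 to 47. The cap on Myh11 in the rule is in raw UMIs and does not scale with depth. Of cells meeting the marker rule, 139 of 244 in WT sham and 49 of 149 in KO ligation 24 h exceeded it.

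For expression, each library's members were pooled, and a gene's UMIs were divided by all UMIs of that pool to give CPM. Ratios are given for genes with at least 30 UMIs over the pair, and a gene counts as higher or lower when it differs at least 2-fold, which is a size and not a test. In WT pericytes at 24 h of ligation against sham, 160 of 3036 measured genes were higher (5.27%) and 132 lower (4.35%). In KO pericytes 208 of 3467 were higher (6%) and 124 lower (3.58%). Among marker-rich pericytes fewer genes were measured, and the counts were 122 higher and 105 lower of 2526 in WT and 59 and 63 of 2626 in KO. Of the 2844 genes measured in both genotypes, 43 were higher in both, which is 30.3% of those higher in WT and 30.1% of those higher in KO. Lower in both were 18, which is 16.4% and 20.2%. The 2 comparisons share no library. Below, 5 levels given in a row follow the order WT sham, KO sham, WT ligation 24 h, KO ligation 24 h and WT ligation 72 h.

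Ednrb, the endothelin receptor B, stood out at 24 h of ligation in both genotypes. Its level was 175, 158, 1043, 939.5 and 297 CPM. Both 24 h ligation libraries were high and the 2 sham libraries low, with no overlap of counting intervals. Ligation exceeded sham 5.95-fold (4.31 to 8.38) in WT and 5.97-fold (4.29 to 8.49) in KO. At 72 h in WT it was 3.52-fold (2.39 to 5.34) lower than at 24 h. Among marker-rich pericytes the levels were 148, 75.1, 951, 473 and 164 CPM, so the log2 ratio of ligation to sham was 2.69 in WT and 2.65 in KO, from lower levels in both KO libraries. In KO ligation 24 h the 15 low-marker members held 195 of 283 Ednrb UMIs. In the endothelial cells of the same 5 libraries Ednrb was at 96.6, 79.5, 100, 102 and 64.2 CPM, in smooth muscle cells at 12.6, 3.82, 132, 80.2 and 62.8 CPM, and in fibroblasts below 10 CPM. Leukocytes held Ednrb at 34 to 180 CPM over the 6 libraries, and pericytes were above them in 5 of the 6. Ednrb lies at chr14:103814625-103844402 on the minus strand (GRCm38, GENCODE M21).

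Most other channels and receptors of vascular tone had lower levels with ligation, few of them past 2-fold. Of 17 measured genes of this list in WT, 1 was higher and 3 were lower, with a median log2 ratio of -0.62 against -0.01 for all genes. Among marker-rich pericytes of WT 1 of 17 was higher and 3 lower, with a median of -0.33. In KO 1 of 18 was higher and 3 lower, with a median of -0.71 against 0.00; among marker-rich pericytes it was -0.40, with 1 lower. Ednrb was the higher one in both. Ednra, the endothelin receptor A, was at 244, 373, 351, 176 and 237 CPM. In KO it was 2.12-fold (1.5 to 3.02) lower with ligation, while the 2 WT libraries overlapped in their counting intervals. Gucy1a1 and Gucy1b1, the subunits of the nitric oxide receptor guanylate cyclase, were at 1265, 1076, 816, 545 and 752 CPM and 979, 1014, 806, 571 and 732 CPM. Over all members both were lower after ligation than in sham in each genotype. Cacna1c, the pore of the L-type calcium channel, gave 25, 23, 8 and 12 UMIs in the 4 libraries of sham and 24 h and was 2.41-fold (1.05 to 6.18) lower with ligation in WT and 2.22-fold (1.06 to 4.89) in KO. Pde3a, a phosphodiesterase, was 2.1-fold (1.2 to 3.83) lower in WT, and Atp1b2, a beta subunit of the sodium pump, 2.15-fold (1.39 to 3.41). Trpm4 itself gave 4, 1, 2, 0, 0 and 2 UMIs in the pericytes of the 6 libraries, so that no difference between genotypes was detectable at this depth.

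**Figure D3:**
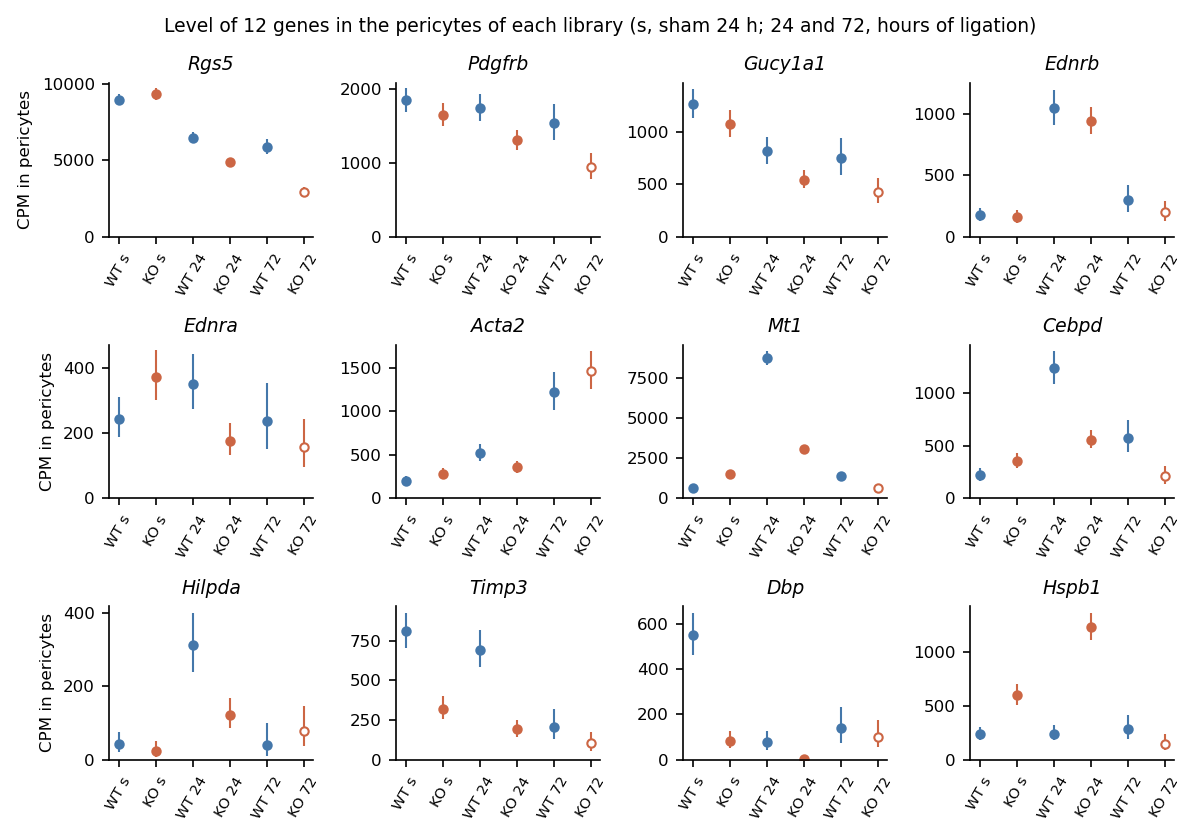
Level of 12 genes (y axis, CPM of summed pericyte UMIs, from 0) in each library (x axis), WT blue and KO orange, with exact Poisson 95% intervals; KO ligation 72 h is drawn open. Ednrb is high in both 24 h ligation libraries, Timp3 is lower in KO than in WT in sham and at 24 h, and Dbp is high in WT sham.

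The level of the identity genes is a description that the choice of the cells largely fixes, since members, and marker-rich members more so, had to carry pericyte markers. None of 20 measured identity genes was past 2-fold with ligation in WT (median log2 -0.35) and none of 20 in KO (median -0.44), and 16 and 17 of them were below 0. Among marker-rich pericytes the medians were -0.36 and -0.07. Without members of another class Cspg4 and Steap4 were past 2-fold lower in WT, with a median of -0.54. Pdgfrb was at 1844, 1644, 1735, 1305 and 1533 CPM. Colec11 was at 1970, 1729, 1157, 939.5 and 1613 CPM; it was 1.7-fold (1.46 to 2.0) lower with ligation in WT and 1.84-fold (1.58 to 2.14) in KO. Steap4, a metalloreductase, was at 1132, 1348, 628, 727 and 910.1 CPM. Rgs5 of the rule, a brake on G protein signalling, was at 8980, 9335, 6467, 4897 and 5906 CPM, and chose the cells, so it is given as a description.

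Hypoxia, glycolysis and metallothionein genes were higher with ligation. In WT 9 of 17 measured genes were higher and 0 lower (median log2 1.10), and all 17 lay above 0. In KO 11 of 18 were higher and 0 lower (median 1.06). Among marker-rich pericytes 12 of 16 were higher in WT (median 1.21) and 3 of 15 in KO (median 0.71). Mt1 was at 621, 1487, 8746, 3068 and 1375 CPM, 14.1-fold (12 to 16.6) above sham in WT and 2.06-fold (1.83 to 2.33) in KO. Its neighbour Mt2 was at 76.2, 473, 2284, 790.1 and 247 CPM. Both metallothioneins were highest in WT ligation 24 h, where 1 member held 32.8% of the Mt1 UMIs. Among marker-rich pericytes Mt1 stood at 668, 547, 6677, 1687 and 1168 CPM, which keeps the same highest library.

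Pgk1 was at 103, 69.2, 341, 362 and 98.9 CPM, 3.32-fold (2.1 to 5.38) above sham in WT and 5.23-fold (3.16 to 9.16) in KO. Hilpda was at 41.9, 23.1, 312, 123 and 39.6 CPM, and among marker-rich pericytes at 38.2, 20.9, 244, 39.4 and 32.9 CPM. Its log2 ratio of ligation to sham in KO was 2.41 over all members and 0.92 over the marker-rich. Gapdh and Ldha, a glycolytic enzyme and the lactate dehydrogenase, were 2.14-fold (1.79 to 2.55) and 2.46-fold (1.94 to 3.14) above sham in WT. In KO they were 2.42-fold (2.05 to 2.85) and 2.11-fold (1.67 to 2.69) above sham, and the marker-rich log2 ratios there were 0.52 and 0.62. Slc16a3, the lactate exporter, had a log2 ratio in KO of at least 3.33 over all members and at least 1.43 over the marker-rich. Its UMIs in KO sham were under 3 and were set to 3. None of the 33 oxidative phosphorylation genes was past 2-fold in either genotype, and the list's median was -0.24 in WT and -0.29 in KO.

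Other genes were higher with ligation in both genotypes. Cdkn1a, the cell cycle inhibitor p21, was at 95.2, 46.1, 469.7, 345 and 139 CPM, 4.93-fold (3.15 to 8.0) above sham in WT and 7.49-fold (4.11 to 15) in KO. Its log2 ratio in WT was 2.30 over all members, 3.75 over the marker-rich and 4.09 without members of another class; 7 such members of WT sham held 19 of 25 UMIs there. After thinning to 1500 UMIs its log2 ratio in KO was 0.75 against 2.90. Mif, a cytokine, was 3.86-fold (3.07 to 4.87) above sham in WT and 3.25-fold (2.6 to 4.09) in KO, where the marker-rich log2 ratio was 0.73 against 1.70 over all members. Sdc4, a syndecan of the cell surface, was 4.54-fold (2.57 to 8.48) and 2.99-fold (1.5 to 6.48) above sham. Gas1, Pde4b, Plin2, Litaf, Lrrc32, Apold1, Dbn1, Nop58, Pa2g4, Pfkl and Rassf1 were also past 2-fold in both, with log2 ratios of 1.03 to 1.84 in WT and 1.11 to 1.91 in KO. Among marker-rich pericytes of KO, Gas1, Lrrc32 and Dbn1 were past 2-fold, and the others had log2 ratios of 0.19 (Apold1) to 0.96 (Litaf). In WT the marker-rich log2 ratios of Plin2, Litaf, Lrrc32, Dbn1 and Rassf1 were 0.89, 0.83, 0.90, 0.63 and 0.76, short of 2-fold. Stc1, the glycoprotein hormone stanniocalcin, had 0 UMIs in WT sham and 41 in WT ligation 24 h, which is at least 17.7-fold higher (against 3 counts in the sham library), and 1 and 38 UMIs in the KO pair. Lower in both were Aspn, a proteoglycan of the matrix, at 884, 1087, 326, 388 and 544 CPM, and Rdh5, a retinol dehydrogenase, at 267, 249.7, 59.3, 106 and 237 CPM. Mgp, an inhibitor of calcification that binds matrix, was at 2930, 2351, 1676, 879.8 and 3413 CPM, 2.67-fold (2.31 to 3.1) lower with ligation in KO, with a marker-rich log2 ratio of -0.81. Aspn and Rdh5 had marker-rich log2 ratios of -0.94 and -0.89 in KO, short of 2-fold. Inpp4b, Kitl, Fry, Ap1s2 and Hist1h1e were also lower in both, with log2 ratios of -1.62 to -1.05 in WT and -1.76 to -1.10 in KO. Of these, Fry in KO and Ap1s2 in both were short of 2-fold among marker-rich pericytes, at -0.97 for Fry and -0.88 (WT) and -0.75 (KO) for Ap1s2.

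Further genes were past 2-fold in 1 genotype, with the difference between genotypes not tested. In WT Vmp1, which acts in autophagy, and Ddx21, an RNA helicase of the nucleolus, were 4.64-fold (2.52 to 9.08) and 3.96-fold (2.38 to 6.82) above sham. Lower in WT were Crip1, a small LIM domain protein, 2.78-fold (2.44 to 3.17), Asap1 3.85-fold (1.86 to 8.96) and Zfp467 3.19-fold (1.76 to 6.2). The marker-rich log2 ratio of Crip1 was -0.91, short of 2-fold. In KO Odc1 was 4.93-fold (3.05 to 8.37) and the enolase Eno1 3.21-fold (2.24 to 4.7) above sham, with marker-rich log2 ratios of -0.15 and 0.79 against 2.30 and 1.68. Lower in KO were Fabp7, a fatty acid binding protein, 4.46-fold (1.9 to 12.1), Gamt, which makes creatine, 3.16-fold (1.99 to 5.16), and Utrn, the dystrophin relative utrophin, 2.89-fold (1.78 to 4.86). Ldhb, Zbtb20 and Smpdl3a were 2.41-fold (1.76 to 3.35), 2.52-fold (1.71 to 3.79) and 2.48-fold (1.7 to 3.69) lower, but short of 2-fold among marker-rich pericytes, with log2 ratios of -0.68, -0.81 and -0.67. Of the genes named for ligation, 15 of 22 of those higher and 7 of 14 of those lower in WT, and 8 of 23 and 5 of 15 in KO, were past 2-fold under every other setting that measured them.

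**Figure D4:**
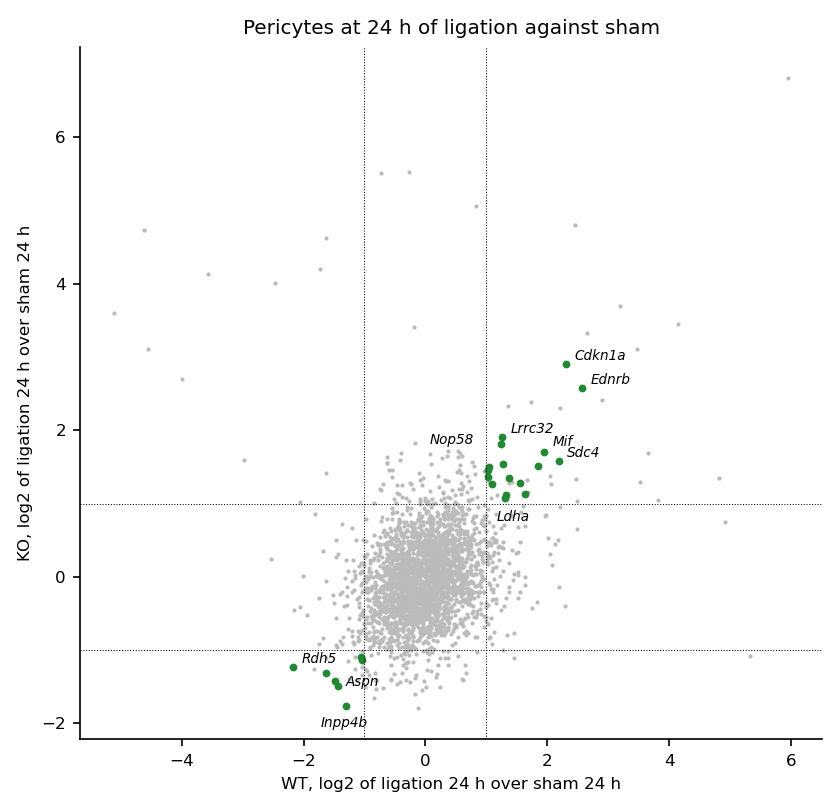
Each point is 1 of 2844 genes measured in both genotypes, with the log2 ratio of ligation to sham at 24 h in WT pericytes on the x axis and in KO pericytes on the y axis; dotted lines mark 2-fold. Green points pass 2-fold in both and the further limits on level and on single members, with Cdkn1a and Ednrb furthest up and right, and single grey points far from the centre include genes held mostly by 1 member.

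Inflammatory genes were higher with ligation in WT. Of 14 measured genes 9 were higher and 0 lower (median log2 1.55), and among marker-rich pericytes 4 of 9 (median 0.90). Cebpd, a transcription factor of the acute phase, was at 221, 353, 1236, 558 and 574 CPM, 5.59-fold (4.19 to 7.58) above sham in WT, with a marker-rich log2 ratio of 2.44. Osmr, the oncostatin M receptor, was 4.54-fold (2.35 to 9.48) above sham, from 45.7 to 208 CPM. The chemokines Ccl2, Ccl7, Ccl11 and Cxcl5 were at 692, 213, 569 and 455 CPM in WT ligation 24 h, but 1 member held 72.9%, 95.4%, 74.8% and 78.3% of those UMIs. In KO 4 of 12 were higher (Cxcl1, Cxcl2, Cebpb and Stat3) and 2 lower (median 0.00). Among marker-rich pericytes of KO 2 of 8 were higher (Cebpb and Cebpd) and 0 lower (median -0.21). Of the interferon-induced genes in WT 1 of 6 was higher, Isg15, a ubiquitin-like modifier, with 11 UMIs in sham and 41 with ligation.

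Immediate early genes, which digestion can also induce, were higher for 4 of 16 in WT (median log2 0.64) and 5 of 18 in KO (median 0.68) over all members, with 0 lower in both. Among marker-rich pericytes 3 of 13 were higher and 0 lower in WT (median 0.64). In KO 1 of 14 was higher (Klf2) and 1 lower (Jun) among them, with a median of 0.28. Junb was at 156, 111, 648, 269 and 228 CPM, and Ier3, an early response gene, at 30.5, 19.2, 277, 249 and 29.7 CPM; both were highest in the 24 h ligation libraries. The part of the digestion in these values was not tested.

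Contractile genes showed no common shift. In WT 4 of 17 were higher with ligation (Acta2, Tagln, Tpm4 and Pdlim7; median log2 0.16) and in KO 1 was higher and 1 lower of 17 (median 0.11). Among all genes 5.27% were higher in WT. Among marker-rich pericytes 1 of 16 was higher in WT (Pdlim7; median 0.02), and 0 of 16 was past 2-fold in KO. Acta2 was at 194, 277, 519, 355 and 1217 CPM, and among marker-rich pericytes at 239, 271, 333, 467 and 345 CPM, where WT ligation 72 h no longer stood apart. In WT ligation 72 h 1 member held 28.5% of the Acta2 UMIs. Tpm1 was high in KO sham at 1272 CPM, where 1 member held 57.4% of its UMIs, and among marker-rich pericytes none of the contractile genes was past 2-fold between the genotypes in sham.

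Among growth and vessel signals, 4 of 15 were higher and 3 lower with ligation in WT (median log2 0.03), and 1 of 14 was higher and 0 lower in KO (median -0.12). Among marker-rich pericytes 2 of 13 were higher (Rbpj and Ccn2) and 1 lower (Ntf3) in WT, and 0 of 13 were higher and 1 lower (Rbpj) in KO. Pdgfa, a PDGF ligand, was 2.26-fold (1.52 to 3.38) above sham in WT and 2.16-fold (1.38 to 3.48) in KO, and is not among the genes just named for marker-rich pericytes. Ccn2 was at 293, 369, 1429, 279 and 109 CPM, high in WT ligation 24 h alone of these 5 libraries, and there 1 member held 31.8% of its UMIs. None of 14 basement membrane genes in WT and 13 in KO was past 2-fold (medians -0.22 and -0.49). Col4a1, a collagen IV chain, was at 1067, 1079, 1345, 1119 and 939.8 CPM. Adamts1, a matrix protease, was at 61, 115, 702, 282 and 317 CPM, 11.5-fold (6.85 to 20.7) above sham in WT, and among marker-rich pericytes at 76.3, 83.4, 761, 124 and 49.3 CPM. Of the interstitial matrix genes 1 of 18 was higher and 4 lower in WT, and 4 and 4 of 19 in KO. The collagens Col1a2 and Col3a1 were the lower ones shared by both genotypes over all members. They were at 286 and 377 CPM in WT sham and 138 and 158 in WT ligation 24 h, and the Col1a1 cap of the rule bears on both. Among marker-rich pericytes these 2 were the lower ones of 13 matrix genes in WT, with 0 higher. In KO Postn was the 1 lower of 12, with 0 higher. The 10 fibroblast markers summed to 2846, 692, 2823, 388 and 762 CPM in the pericytes, and their part in the matrix values was not tested.

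Between genotypes in sham, 79 of 3286 measured genes were higher in KO pericytes (2.4%) and 96 lower (2.92%). At 24 h of ligation 116 of 3204 were higher in KO (3.62%) and 129 lower (4.03%). Among marker-rich pericytes the counts were 49 and 68 of 2848 measured genes in sham and 55 and 101 of 2266 at 24 h. Of 2817 genes measured in both comparisons, which share no library, 3 were higher in KO in both (5.56% of the sham list and 3.61% of the ligation list) and 7 lower in both (11.3% and 7.69%).

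Timp3, an inhibitor of matrix metalloproteinases, was the 1 gene of those 7 that also passed the limits on level and on single members. It was at 808 CPM (703 to 924) in WT sham and 323 CPM (257 to 399.5) in KO sham, and at 692 CPM (582 to 817) and 193 CPM (146 to 249) in WT and KO ligation 24 h. WT ligation 72 h had 208 CPM (129 to 318). The 2 WT libraries of 24 h were high, and the other 3 low. The counting intervals of the 2 sets did not overlap. KO was 2.5-fold (1.94 to 3.26) lower than WT in sham and 3.6-fold (2.63 to 4.97) at 24 h, and among marker-rich pericytes the levels were 835, 346, 767, 276 and 313 CPM. Endothelial cells held Timp3 at 763 and 571 CPM in WT and KO sham, smooth muscle cells at 667 and 506, and fibroblasts at 624 and 744. At 24 h of ligation endothelial cells held 691 and 547 CPM, smooth muscle cells 643 and 395, and fibroblasts 435 and 289. KO was the lower of the pair in these 3 populations too, except in the fibroblasts of sham. After thinning to 1500 UMIs the log2 ratio of KO to WT was -0.85 in sham, short of 2-fold, against -1.32 over all members. Timp3 lies at chr10:86300372-86349506 on the plus strand and is known to sit within an intron of Syn3, which is on the other strand.

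Clock genes were lower in KO than in WT sham. All 6 of 6 measured clock genes near Dbp (Dbp, Tef, Hlf, Per3, Nr1d1 and Nr1d2) were past 2-fold, with a median log2 ratio of -1.98 against -0.01 for all genes. All 5 of 5 measured were also lower in WT ligation 24 h than in WT sham (median -1.95). Both comparisons share WT sham. In KO ligation against sham and in KO against WT at 24 h of ligation, fewer than 5 genes of this list were measured. The same held for WT at 72 h against 24 h, so the list shows nothing there. Dbp, a transcription factor that cycles over the day, was at 549, 84.5, 79.1, 3.32 and 139 CPM in pericytes. In endothelial cells it was at 350.3, 58.1, 27.1, 15.7 and 34.4 CPM, and in fibroblasts at 167, 31.6, 25.2, 7.51 and 23.4. In each of these populations Dbp was also lower in KO ligation 24 h than in KO sham. Fewer than 5 genes of the opposite phase of the clock were measured, and that list is not summarised. The hour of sampling is not in the labels, and its part was not tested.

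Of the immediate early and dissociation list 3 of 14 were higher in KO than in WT sham (Dusp1, Hspa8 and Hspb1) and 1 lower (Klf2), with a median log2 ratio of 0.14. Among marker-rich pericytes the same 3 of 12 were higher and 0 lower (median 0.46). Digestion can induce genes of this list, and its part was not tested. Hspb1, a small heat shock protein of actin filaments, was at 236, 595, 242, 1225 and 287 CPM; KO exceeded WT 2.52-fold (1.87 to 3.44) in sham and 5.06-fold (3.75 to 6.96) at 24 h of ligation. Both KO libraries were above all 3 WT libraries, while KO ligation 72 h, shown apart, had 150.1 CPM. Hspa8, the constitutive Hsc70 chaperone, was at 575, 1298, 1117, 1640 and 1039 CPM, 2.26-fold (1.86 to 2.75) higher in KO sham, and WT sham was the lowest of the 5. Dnaja1, an Hsp40 co-chaperone, and Chordc1, a partner of Hsp90, were 2.12-fold (1.66 to 2.73) and 3.03-fold (1.49 to 6.64) higher in KO sham. Nmt1, an N-myristoyltransferase, was 2.92-fold (1.71 to 5.21) higher in KO sham but also 4.24-fold (2.5 to 7.5) higher with ligation in WT. Sod2, the mitochondrial superoxide dismutase, was 2.5-fold (1.71 to 3.7) higher in KO sham, a log2 ratio of 1.32 that was 0.34 among marker-rich pericytes. Btg1, Dync1i2, Fxr1 and Cped1 were 2.18-fold (1.67 to 2.86), 2.1-fold (1.58 to 2.8), 2.79-fold (1.57 to 5.18) and 2.19-fold (1.5 to 3.25) higher. Lower beside the clock genes and Timp3 were Capn2, a calpain protease, 3.7-fold (1.87 to 7.97), Copb2, a coat protein of Golgi vesicles, 3.06-fold (1.56 to 6.44), and Cct8, a chaperonin subunit, 2.56-fold (1.48 to 4.6). Nfic and Stard8 were 2.48-fold (1.49 to 4.27) and 2.34-fold (1.48 to 3.78) lower. Of the genes named here, 5 of 10 higher (Chordc1, Fxr1, Hspa8, Hspb1 and Nmt1) and 6 of 10 lower (Copb2, Dbp, Hlf, Nfic, Per3 and Tef) were past 2-fold under every other setting that measured them.

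In sham none of 20 identity genes and 17 tone genes was past 2-fold (with 10 and 10 above 0), nor any of 14 basement membrane and 33 oxidative phosphorylation genes (medians -0.15 and 0.18). Of the hypoxia list 2 of 14 were higher, Mt1 and Mt2, of which 1 member held 31% and 52.9%, and none among marker-rich pericytes. Ccl2, Cxcl5 and Il6 were the 3 higher of 11 inflammatory genes, and 1 member held 83.3%, 91.8% and 100% of their UMIs in KO sham. Fn1, Spp1 and Lgals3 of the matrix list were lower in KO sham at 2-fold, but in WT sham 1 member held 39.3%, 54.9% and 50% of them, and among marker-rich pericytes Timp3 was the lower one of the 13 measured. Notch2 was the lower one of 16 growth and vessel signals, and none of 5 interferon-induced genes was past 2-fold. None of the 6 or 7 measured proliferation genes was past 2-fold in any of the 5 comparisons, and the cell cycle was not read further.

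At 24 h of ligation several inflammatory genes and both metallothioneins were lower in KO than in WT. This comparison shares the WT ligation 24 h library with that of WT ligation and sham. Of 15 inflammatory genes 6 were lower and 2 higher (median log2 -0.57 against 0.01 for all genes), and among marker-rich pericytes 3 of 9 lower (Ccl2, Ccl11 and Osmr). Lower over all members were Ccl7, Ccl11, Cxcl5, Osmr, Il6st and Cebpd, and higher were Cxcl2 and Il6. Cebpd was 2.22-fold (1.82 to 2.71) lower in KO, with a marker-rich log2 ratio of -0.91, and Osmr was 2.84-fold (1.66 to 5.0) lower. The remaining chemokines rest on few members, as given above. Of the interferon-induced genes 3 of 7 were lower, Isg15 12.2-fold (4.83 to 39.6), Xaf1 2.86-fold (1.41 to 6.1) and Parp14 2.87-fold (1.45 to 5.93), and the same 3 among marker-rich pericytes. Of the hypoxia list 3 were lower (Hilpda, Mt1 and Mt2) and 1 higher of 19. The median of that list was 0.01 over all members and -0.74 over the marker-rich, of which 5 of 16 were lower. Mt1 was 2.85-fold (2.63 to 3.09) lower and Mt2 2.89-fold (2.47 to 3.4). Phf11d, an interferon-responsive gene, Bach1, a repressor of heme oxygenase, Atxn2, an RNA-binding ataxin, and Usp8, a deubiquitinase, were 5.13-fold (2.38 to 12.3), 3.79-fold (1.83 to 8.44), 4.89-fold (2.03 to 13.5) and 4.14-fold (1.87 to 10.1) lower. These 4 and Timp3 were past 2-fold under every other setting that measured them. Igfbp5, a binding protein of insulin-like growth factors, Zbtb20, a transcription repressor, and Errfi1, an inhibitor of the EGF receptor, were 2.48-fold (1.9 to 3.24), 2.9-fold (1.95 to 4.39) and 2.28-fold (1.8 to 2.9) lower. Adamts1 was 2.49-fold (1.89 to 3.3) lower, and its marker-rich log2 ratio was -2.62 against -1.31 over all members.

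Among the named genes Fkbp4, a partner of Hsp90, was 3.24-fold (1.67 to 6.87) higher in KO at 24 h, and Serpinh1, the collagen chaperone Hsp47, 2.09-fold (1.63 to 2.7), with marker-rich log2 ratios of 1.5 and 1.12. Pdia6, a disulfide isomerase, was 2.55-fold (1.77 to 3.74) higher, with a log2 ratio of 1.35 that was 0.63 among marker-rich pericytes. Psmd3, a proteasome subunit, and Phb2, a prohibitin, were 2.63-fold (1.41 to 5.28) and 2.41-fold (1.39 to 4.4) higher. Il6 was 5.1-fold (2.01 to 16.6) higher, but its marker-rich log2 ratio was -0.08, and the 15 low-marker members held 37 of its 38 UMIs. Txnrd1, Sars and Taldo1 had log2 ratios of 1.46, 1.27 and 1.26 over all members and 0.14, 0.24 and 0.41 over the marker-rich. Fkbp4 and Psmd3 were past 2-fold under every other setting that measured them. Ednrb was 1.11-fold (0.925 to 1.33) lower in KO over all members, an interval that includes no difference, while the marker-rich levels were 951 CPM in WT and 473 in KO. Of the signals 3 of 15 were lower (Rbpj, Tgfbr2 and Ccn2), of which Ccn2 alone was past 2-fold among marker-rich pericytes. Atp2a2, the calcium pump of the reticulum, was the 1 lower of 17 tone genes over all members. Among marker-rich pericytes Ednra and Ednrb were the lower ones and Pde3a the higher one of 15 tone genes. None of 17 contractile and 12 basement membrane genes was past 2-fold over all members (Csrp2 of the contractile list was higher among the marker-rich). None of 20 identity genes was past 2-fold (median -0.21, marker-rich 0.12).

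**Figure D5:**
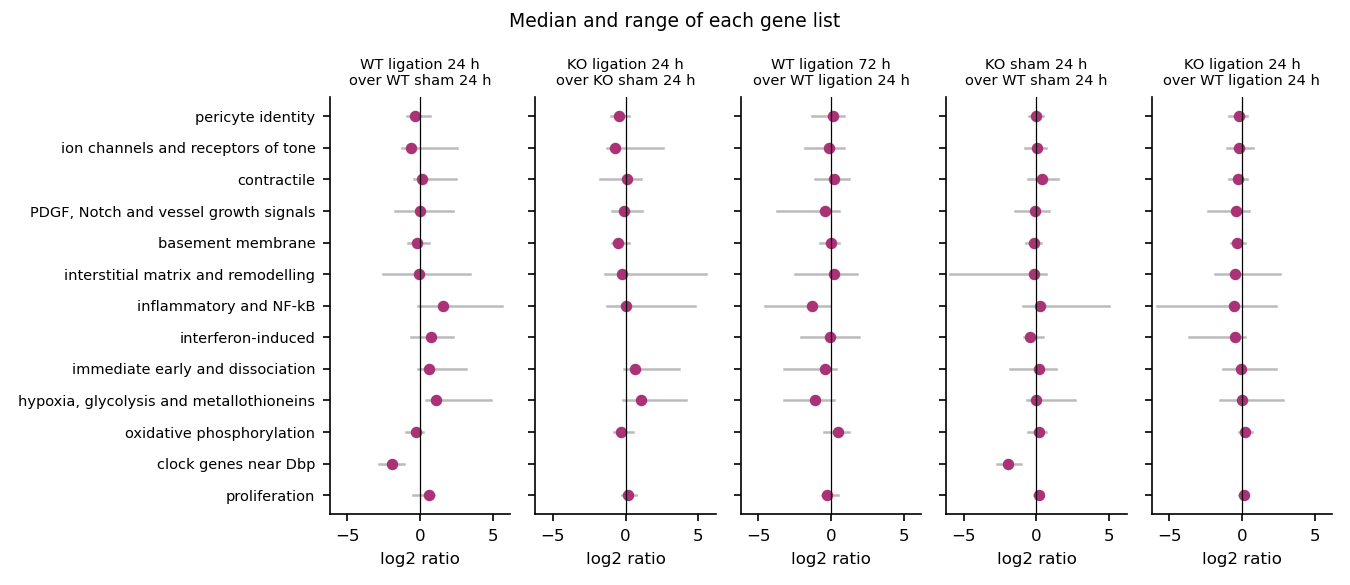
Dots give the median log2 ratio of each gene list (rows) in 5 comparisons of pericytes (panels, x axes in log2), and grey bars run from its lowest to its highest measured gene; a list with fewer than 5 measured genes has no dot. The hypoxia list lies right of 0 in both ligation panels and left of 0 at 72 h in WT, and the clock list lies left of 0 where WT sham is the reference.

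At 72 h of ligation the WT pericytes, only 30, had lower levels of genes that were high at 24 h, and the comparison shares the 24 h library with that of ligation and sham. Of 1927 genes measured, 68 were higher at 72 h than at 24 h (3.53%) and 175 lower (9.08%). Among marker-rich pericytes 72 of 1469 were higher and 123 lower. Marker-rich members numbered 23 at 72 h, under the 25 set as the least for a comparison. Marker-rich values for this comparison are therefore given as a description. Of the hypoxia list 9 of 17 were lower and 0 higher (median log2 -1.08), and of the inflammatory list 8 of 13 lower and 0 higher (median -1.28). Among marker-rich pericytes 9 of 16 of the hypoxia list were lower (median -1.18) and 4 of 8 of the inflammatory list (median -1.18). The lower inflammatory genes include Ccl2, Ccl7, Ccl11 and Cxcl5, of which 1 member held 72.9% to 95.4% of the UMIs at 24 h. Mt1 was 6.36-fold (5.35 to 7.62) lower than at 24 h, and still 2.21-fold (1.75 to 2.79) above WT sham. Cebpd was 2.15-fold (1.61 to 2.92) lower, and 2.6-fold (1.77 to 3.8) above WT sham. Sdc4 had 56 UMIs at 24 h and 1 at 72 h, and Pfkl, the liver phosphofructokinase, 36 and 1. Adamts4, a protease of proteoglycans, Ybx3, an RNA-binding protein, Rhox5, Lars2, Gcnt2 and Cyth3 were lower, with log2 ratios of -2.46 to -1.63. Rhox5 had under 3 UMIs at 72 h, which were set to 3, so its ratio of -2.46 is a bound. Timp3 was 3.33-fold (2.1 to 5.55) lower than at 24 h. All 10 of the named lower genes were past 2-fold under every other setting that measured them.

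Genes higher in WT at 72 h than at 24 h included Rdh5, 4.0-fold (1.93 to 8.78), at 237 CPM against 267 in sham. Slc9a3r1, a scaffold of membrane transporters, was 4.4-fold (2.0 to 10.4) higher, and Gja4, the gap junction protein connexin 37, 2.16-fold (1.51 to 3.08). Ndufa11 and Ndufb10, subunits of respiratory complex I, were 2.48-fold (1.62 to 3.81) and 2.37-fold (1.55 to 3.62) higher, and Ldhb, the other lactate dehydrogenase, 2.29-fold (1.57 to 3.35). Of the oxidative phosphorylation list 3 of 31 were higher and 0 lower, with 28 above 0 (median 0.45 against 0.05 for all genes; marker-rich median 0.17). Armc1, Selenow, Serf2 and Cox6b1 were higher, with log2 ratios of 1.07 to 1.93. Of the matrix list 5 of 16 were higher (Col1a2, Col5a2, Fn1, Timp1 and Bgn) and 4 lower, and 1 and 1 of 12 among marker-rich pericytes. None of 12 basement membrane genes was past 2-fold.

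In KO ligation 72 h, shown apart, the 74 members had Rgs5 at 2955 CPM and Pdgfrb at 948, the lowest of the 6 libraries. Its 23 marker-rich members had Rgs5 at 5354 CPM and Pdgfrb at 1828, where the other libraries ranged from 7329 to 10080 and from 1727 to 2187 CPM. In these 23 Ednrb was at 218 CPM, Mt1 at 218, Cebpd at 283 and Timp3 at 152. The 23 marker-rich members of WT ligation 72 h had 164, 1168, 757 and 313 CPM. Acta2 was at 2024 CPM in the KO 23 and 345 in the WT 23. Counts of genes past 2-fold between the genotypes at 72 h are not used here.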

How the data were processed

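Droplet 3' single-cell libraries were counted with Cell Ranger 6.0.0 on mm10, per the submitters' processing notes. The deposited files hold raw UMI counts per gene and cell barcode for 6 libraries, with no cell annotation. Cells and pericytes were chosen as the report states; members and gene lists were chosen with earlier results of these data known. UMIs were summed per library and scaled to CPM (Python 3.11.15, numpy 2.4.6, scipy 1.17.1, pandas 2.3.3). Levels have exact Poisson, ratios exact conditional Poisson, shares Clopper-Pearson and share differences Newcombe 95% intervals. UMIs from 1 pooled library measure counting error, not the spread between mice. The ratio script was tested on simulated data. A gene with under 3 UMIs in a library was set to 3 counts there, so its ratio is a bound.

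Genes were named by a rule: in each comparison the 10 highest and the 10 lowest by the interval bound nearest to no difference, among genes past 2-fold with at least 30 UMIs over the pair, at least 100 CPM in the higher library, at most 25% of UMIs in 1 member and a level at least 0.25 of the highest other population. List members past 2-fold were named too, and genes past 2-fold with ligation in both genotypes. Lists needed at least 5 measured genes. Some genes that the rule names are not reported here. Scrublet (scanpy 1.11.5) at its automatic threshold marked 61, 6, 19, 1, 9 and 0 cells in the 6 libraries in the order of the report, so the cells with the highest scores were removed as an alternative (105 to 425 cells a library, a share that grows with the number of deposited cells). Gene positions are from GENCODE M21 (GRCm38), which matched 32158 of 32285 identifiers. Figures used matplotlib 3.10.9.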

Additional observations from a re-analysis of the deposited data

Results flagged for a closer look

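Cebpd and Cped1 went opposite ways between the genotypes in sham and at 24 h of ligation. Cebpd, the acute-phase transcription factor, had a log2 ratio of KO to WT of 0.68 in sham pericytes and -1.15 after ligation, from levels of 221 and 353 CPM in WT and KO sham and 1236 and 558 CPM in WT and KO ligation 24 h. Cped1, a gene with a cadherin-like domain, had a log2 ratio of 1.13 in sham and -0.53 after ligation, from 156 and 342 CPM in sham and 316 and 219 CPM after ligation. In each case the 1 library of a group went one way and that of the other group the opposite way. The difference between the 2 comparisons was not tested, since no group has a replicate.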

How the results depend on the processing

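The ratio of a group to another is written with a slash below. Of the recomputed log2 ratios of single named genes that were counted, 1100 lay within the 95% counting interval of the reported ratio and 64 outside it. None of those counted had the opposite sign where that interval excluded 0. The tally left out some marker-rich values, among them 2 of opposite sign. These were Odc1 in KO ligation/sham (-0.15 against 2.30) and Il6 in KO/WT ligation 24 h (-0.08 against 2.35). Of list medians, 547 lay within and 33 outside the order-statistic interval of the reported median over the list's genes, and 3 had the opposite sign. The cause was not tested for any value below, except that a higher or lower minimum of UMIs tests fewer or more genes. Scaling by the median ratio of genes left every count within 1.5 times of that reported. With leukocytes left out of the denominator the pericyte share was 2.28% in WT sham 24 h, 1.88% in KO sham 24 h, 3.44% in WT ligation 24 h, 5.87% in KO ligation 24 h, 3.31% in WT ligation 72 h and 4.59% in KO ligation 72 h. The share difference in percentage points was 2.43 for KO/WT ligation 24 h, 1.28 for KO/WT ligation 72 h, 1.17 for WT ligation/sham, 4.00 for KO ligation/sham and -0.14 for WT 72 h/24 h. With each cell thinned to 1500 UMIs the pericyte share was 1.93% in WT sham 24 h, 2.04% in KO sham 24 h and 0.92% in KO ligation 72 h. In percentage points the share differed by 0.14 for KO/WT ligation 72 h and -0.80 for KO ligation/sham. The genes past 2-fold higher were 37 for KO/WT sham, 41 for KO/WT ligation 24 h, 73 for WT ligation/sham, 62 for KO ligation/sham and 38 for WT 72 h/24 h. The genes past 2-fold lower were 44 for KO/WT sham, 33 for KO/WT ligation 24 h, 61 for WT ligation/sham, 53 for KO ligation/sham and 47 for WT 72 h/24 h. The list median of log2 ratios was 0.064 for oxidative phosphorylation genes in KO/WT sham, -0.17 for contractile genes in WT ligation/sham, -0.13 for identity genes in KO ligation/sham, -0.34 for tone genes in KO ligation/sham, 1.75 for inflammatory genes in KO ligation/sham, -0.063 for oxidative phosphorylation genes in KO ligation/sham, 0.58 for contractile genes in WT 72 h/24 h, 0.30 for oxidative phosphorylation genes in WT 72 h/24 h and 0.72 for proliferation genes in WT 72 h/24 h. Under stricter limits on the markers of other cells (0 UMIs of Cdh5, Csf1r, Ptprc and Myh11, at most 1 of Col1a1) the pericyte share was 0.945% in WT sham 24 h, 0.94% in KO ligation 24 h and 0.828% in KO ligation 72 h. The share difference in percentage points was 0.25 for KO/WT ligation 72 h. Past 2-fold higher were 122 for KO ligation/sham. Past 2-fold lower were 63 for KO/WT sham, 84 for KO/WT ligation 24 h, 84 for WT ligation/sham, 70 for KO ligation/sham and 113 for WT 72 h/24 h. Median log2 ratios of lists were -0.067 for matrix genes in KO/WT sham, -0.002 for signal genes in KO/WT ligation 24 h, -0.31 for identity genes in KO ligation/sham and -0.36 for oxidative phosphorylation genes in KO ligation/sham. With a marker sum of at least 6 and 3 of 5 markers the pericyte share was 0.659% in KO ligation 72 h. In percentage points the share differed by 0.031 for KO/WT ligation 72 h. Lists had a median log2 ratio of -0.010 for contractile genes in KO/WT ligation 24 h. With Scrublet doublets removed higher genes past 2-fold numbered 74 for KO/WT ligation 24 h. The list median of log2 ratios was 0.060 for oxidative phosphorylation genes in KO/WT sham and -0.18 for oxidative phosphorylation genes in KO ligation/sham. At a minimum of 100 UMIs over the pair the genes past 2-fold higher were 13 for KO/WT sham, 27 for KO/WT ligation 24 h, 36 for WT ligation/sham, 53 for KO ligation/sham and 12 for WT 72 h/24 h. Lower genes past 2-fold numbered 16 for KO/WT sham, 20 for KO/WT ligation 24 h, 18 for WT ligation/sham, 12 for KO ligation/sham and 36 for WT 72 h/24 h. At a minimum of 1 UMI past 2-fold higher were 600 for KO/WT sham, 551 for KO/WT ligation 24 h, 874 for WT ligation/sham, 879 for KO ligation/sham and 4889 for WT 72 h/24 h. The genes past 2-fold lower were 637 for KO/WT sham, 777 for KO/WT ligation 24 h, 711 for WT ligation/sham, 731 for KO ligation/sham and 509 for WT 72 h/24 h. Median log2 ratios of lists were -0.89 for inflammatory genes in WT 72 h/24 h and 0.52 for proliferation genes in WT 72 h/24 h. With the mean of each cell's CPM lists had a median log2 ratio of 0.11 for oxidative phosphorylation genes in KO/WT ligation 24 h, -0.19 for identity genes in KO ligation/sham and -0.36 for tone genes in KO ligation/sham. Without members holding another class's genes, a setting chosen after seeing the data, the pericyte share was 0.471% in KO ligation 72 h. The share difference in percentage points was -0.18 for KO/WT ligation 72 h. The list median of log2 ratios was 0.063 for oxidative phosphorylation genes in KO/WT sham, -0.023 for contractile genes in WT ligation/sham, -2.94 for clock genes in WT ligation/sham, -0.17 for oxidative phosphorylation genes in KO ligation/sham and 0.33 for oxidative phosphorylation genes in WT 72 h/24 h. In marker-rich pericytes, also chosen after seeing the data, the pericyte share was 0.433% in KO ligation 72 h. In percentage points the share differed by -0.083 for KO/WT ligation 72 h. Higher genes past 2-fold numbered 49 for KO/WT sham, 55 for KO/WT ligation 24 h and 59 for KO ligation/sham. Past 2-fold lower were 63 for KO ligation/sham. Median log2 ratios of lists were 0.12 for identity genes in KO/WT ligation 24 h, 0.14 for contractile genes in KO/WT ligation 24 h, -0.20 for proliferation genes in KO/WT ligation 24 h, 0.016 for contractile genes in WT ligation/sham, -0.18 for oxidative phosphorylation genes in WT ligation/sham, -0.075 for identity genes in KO ligation/sham, -0.40 for tone genes in KO ligation/sham, 0.71 for hypoxia genes in KO ligation/sham, -0.080 for oxidative phosphorylation genes in KO ligation/sham and 0.17 for oxidative phosphorylation genes in WT 72 h/24 h. No paired analysis was possible because each group is 1 library, and for the same reason no replicate could be left out. The limits are the 30 to 85 members a library and their depth, which leave genes under about 100 CPM with wide intervals, the leukocyte RNA in KO ligation 72 h, and the lack of a replicate, so that a difference between 2 libraries cannot be told apart from one between groups of mice. Cell loss in digestion and sorting was not tested.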
